A study of Homo sapiens with 4 samples.

Results

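The departure of combined drug treatment from additivity was computed for 19775 human genes, covered by the 41091 probe sets that name 1 gene among 54613 probe sets that are not controls. For each gene it is log2 of the signal after both drugs, minus log2 of the signal after each drug alone, plus log2 of the untreated signal. Signals under 66.4, the median of all signals other than controls, were first raised to that value, called the floor here. A departure of 0 means that the folds of the drugs multiplied. A departure of 1 means that the combination signal was 2-fold higher than that product, and a departure of -1 means that it was 2-fold lower. Each gene was read from the probe set with its highest mean log2 signal.

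The cells were Panc1, an established line from a human pancreatic ductal carcinoma, and the 4 groups were untreated cells (Untreated) and cells given romidepsin (Rom), tamoxifen (Tam) or romidepsin plus tamoxifen (Combo) for 24 hours. All 4 groups were of this 1 line, grown in the same serum-containing medium, and doses are not given in the sources used here. Each group had 1 array, which leaves no residual degree of freedom once the departure itself is estimated. No p-value is therefore given, every value describes these 4 arrays, and the comparison asks for which genes the effect of one drug was larger or smaller in the presence of the other.

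Romidepsin inhibits histone deacetylases, and the rise in histone acetylation that follows is known to shift the transcription of many genes, with CDKN1A among the classic induced genes and proliferation genes among the repressed. Tamoxifen, a selective modulator of estrogen receptors, is also known to bind enzymes of late sterol synthesis, and cells that sense too little sterol switch on their cholesterol synthesis genes through the transcription factor SREBP2. These statements are background and not results of these arrays.

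The arrays had the same trimmed mean signal by scaling, and their median signals lay between 59.5 (Untreated) and 73.0 (Combo), with a departure of -0.04 for the medians themselves. Over 18 hybridization spike-in probe sets, which should depart by nothing, the mean departure was 0.05 with an SD of 0.13. The 3′ to 5′ signal ratio of actin, a sign of RNA quality, was highest on the Combo array (1.73, against 1.18 to 1.39 on the others), while that of GAPDH was between 1.03 and 1.07 on all 4. Of 7 markers of Panc1 cells, 5 lay above the floor on all 4 arrays, KRT7, KRT8, KRT18, CDH1 and VIM, while KRT19 lay at the floor on all 4. Markers of leukocytes (0 of 4) and islet cells (0 of 3) did not lie above the floor on any array. Of 5 fibroblast markers COL1A1 (9282, 9773, 9163 and 6365) and DCN (67.1 to 91.6) lay above it on all 4 arrays and COL1A2, COL3A1 and LUM on none. Of 3 endothelial markers PECAM1 lay above it on all 4 (110 to 136), VWF on 2 and CDH5 on none, and of 2 measured acinar markers CEL on 1 and CPA1 on none. Summed marker signals of the Panc1 list were 74285, 62823, 56556 and 39540 in Untreated, Rom, Tam and Combo. The part of RNA quality and cell composition in the departures was not tested.

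Of the 19775 genes, 11058 lay above the floor on all 4 arrays, 3356 lay at the floor on 1 to 3 arrays and 5361 lay at the floor throughout. Among the 11058, the combination exceeded the additive expectation at least 2-fold for 98 genes (0.886%). It fell short of it at least 2-fold for 247 genes (2.23%), so that 3.12% were called either way. The shares of 0.886% above and 2.23% below are the background for each count of called genes in a list. The median departure was -0.04, the quartiles were -0.30 and 0.19, and 6123 genes (55.4%) had a negative departure. The SD over genes was 0.42. The departure was thus small for most genes. This does not show that folds multiply, since a gene that neither drug moves also has a departure near 0. With effects added on the linear scale the median was 0.03. The counts move with the floor: with the 25th percentile of signals as the floor 548 genes were above and 795 below, with the 75th 12 and 63, and with log2(signal + 50) in its place 45 and 133. The threshold does not part 2 kinds of genes: CHRNA10 was called above at 1.0001 and SLIT3 was not at 0.999, while AOX1 was called below at -1.0004 and RRAGD was not at -0.998.

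For the 3356 genes with some arrays at the floor the departure is at best a bound. It was at least 1 above additivity for 77 genes (2.29%) and at least 1 below for 101 genes (3.01%). For another 126 genes (3.75%) the floored values gave a departure past 1 whose true size could lie on either side of it, because arrays that enter with opposite signs, or the array that would weaken the departure, lay at the floor. These are called not settled here.

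**Figure D1:**
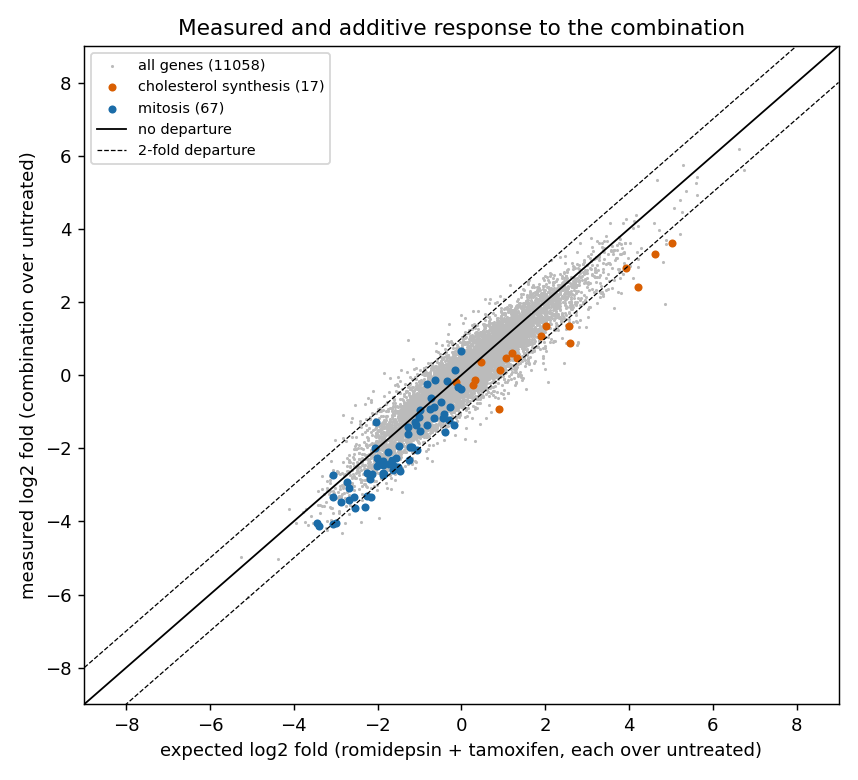
Each point is 1 of the 11058 genes above the floor on all 4 arrays, with the sum of its log2 folds after romidepsin alone and tamoxifen alone on the x axis and its measured log2 fold after both drugs, each over untreated cells, on the y axis. Points on the solid line are additive and the dashed lines mark a 2-fold departure. All 17 cholesterol synthesis genes (orange) and 57 of 67 mitosis genes (blue) lie below the solid line, the former mostly at positive and the latter at negative folds.

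The 345 called genes took 6 forms, by where the Combo signal stood against the 3 other arrays. Of the 247 genes below additivity, 135 (54.7%) had their lowest signal in Combo. Their median log2 fold over untreated cells was -0.36 after romidepsin, 0.43 after tamoxifen and -1.12 after both. A further 95 genes (38.5%) had an intermediate Combo signal, and here the median log2 fold was 1.22 after romidepsin, 0.86 after tamoxifen and 0.77 after both. Only 17 of the 247 (6.88%) had their highest signal in Combo, with median log2 folds of 2.23, 1.43 and 2.65 in the same order, so that the combination gave less than the drugs' product but more than either drug alone.

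Of the 98 genes above additivity, 58 (59.2%) had their highest signal in Combo, with median log2 folds of 0.01 after romidepsin, -0.23 after tamoxifen and 0.99 after both. In 39 (39.8%) Combo was intermediate, with medians of -1.03 and -0.84 after the single drugs and of -0.57 after both. The single remaining gene, RTN4RL1, was lowest in Combo by a small margin, at 179, 87.3, 81.3 and 81.1 in Untreated, Rom, Tam and Combo. Of the 98 genes, 24 had an expected Combo signal under the floor and could be counted here only with a positive departure. The forms were not split by this.

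The called genes were dimmer than most, more so above additivity. The median gene had a mean signal of 177 among those called above and 363 among those called below, against 913 over the 11058 genes. When the genes were split by mean signal into 5 bins of equal size, 68 were called above and 103 below in the dimmest bin and 0 and 26 in the brightest, and the SD of the departure was 0.57 and 0.31 in these bins. Of the 11058 genes, 70 had an expected Combo signal under the floor, where no shortfall could be seen, and 24 of those were called above and 0 below.

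A second probe set gives a further view of the same arrays. Over all 19689 probe sets above the floor on the 4 arrays, 1.4% were called above and 2.44% below. Over 5245 genes with one above the floor on all 4 arrays, the departures of both probe sets differed by a median of 0.25, and 65.7% had the same sign. Of 73 genes called below that had a second probe set, 64 (87.7%) had a negative second departure, against 55.1% over all such genes, and 17 (23.3%) were past -1 again, against 2.48%. Of 26 genes called above, 18 (69.2%) had a positive second departure, against 44.9% over all such genes, and 1 (3.85%) was past 1 again, against 1.94%. Both probe sets thus showed the shortfall far more often than they showed the excess.

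The 17 genes below additivity on both probe sets, named after their values were seen, were TFPI, TM4SF1, AGR2, HMGCS1, SUCLG2, PKIB, IDI1, NQO1, RRM2, CDK1, TMEM198, DHRS9, DNAJC12, TMEM97, ANLN, SLC17A5 and TMEM92. TM4SF1, a membrane protein of the tetraspanin-like family that is abundant in many carcinomas, had signals of 28519 in Untreated, 5108 in Rom, 30438 in Tam and 1761 in Combo. Tamoxifen alone left TM4SF1 within 1.07-fold of untreated cells, whereas added to romidepsin it went with a 2.90-fold lower signal. AGR2, a secretory-pathway protein of mucous epithelia and adenocarcinomas, had signals of 12630, 7365, 19359 and 4086 in the same order, so that it was highest in Tam and lowest in Combo. The 1 gene above additivity on both probe sets was ESF1, a nucleolar factor of ribosomal RNA processing, at 736, 526, 1051 and 1975, where Combo was the highest array and the departure was 1.39.

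With folds expected to multiply, cholesterol synthesis had the lowest median of the 53 gene lists with at least 5 measured members. All 17 measured genes had a negative departure, as did all 32 of their probe sets above the floor, and 6 of the 17 were called below and 0 above, beside 2.23% and 0.886% of all genes. Their median departure was -0.83, against -0.04 over all genes. The median gene was 0.69 higher in log2 after romidepsin, 0.97 higher after tamoxifen and 0.61 higher after both. Gene by gene, the median of Combo over Rom was 0.10, with 8 of 17 genes lower in Combo, and that of Combo over Tam was -0.14.

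In the order of the pathway, ACAT2, the cytosolic thiolase that makes acetoacetyl-CoA, had signals of 4771 in Untreated, 3135 in Rom, 13641 in Tam and 2504 in Combo. It was high with tamoxifen alone and lowest in Combo, where 8965 was expected, and its departure was -1.84. HMGCS1, which makes HMG-CoA, had signals of 717, 4277, 3931 and 8822, with 23456 expected. Here each drug alone went with a severalfold higher signal and Combo was the highest of all arrays, yet its departure was -1.41. MVD, the decarboxylase that ends the mevalonate steps, had signals of 268, 599, 728 and 491 and a departure of -1.73, with Combo below either drug alone. IDI1, the isomerase that follows it, was again highest in Combo, at 2397, 11136, 12654 and 23914 against 58791 expected. Its departure was -1.30 and ranged from -1.30 to -0.05 over its 4 probe sets. The 58791 expected lies above 46452, the highest mean signal of any of the 11058 genes. Whether an array could read so high a signal was not tested.

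TM7SF2, a sterol reductase of the late pathway, had signals of 562, 3073, 1916 and 3008 and a departure of -1.80, so that Combo matched romidepsin alone. MSMO1, the sterol methyl oxidase, had signals of 6404, 12343, 19726 and 16180 and a departure of -1.23, with Combo between the single drugs. The other 11 genes were not called, and their departures ran from -0.996 for SC5D, -0.87 for FDPS and -0.83 for SQLE to -0.11 for NSDHL and -0.06 for PMVK. The values depend on what additive means. On a linear scale, where the signal gains of the drugs are summed, the list's median was -0.47, beside -0.52 for epithelial junction genes, and HMGCS1 and IDI1 lay above the sum, at 0.24 and 0.16. Against the drug that moved each gene more, the list's median was -0.23, beside -0.70 for mitosis genes.

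**Figure D2:**
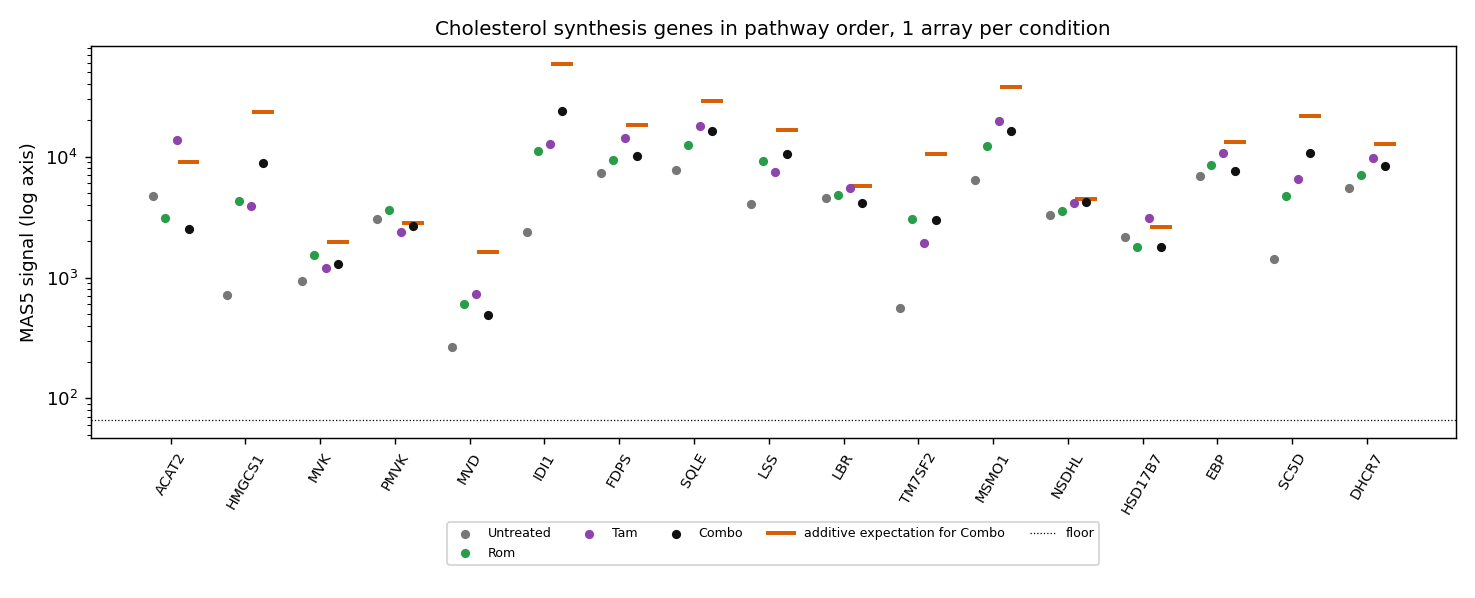
MAS5 signals of the 17 cholesterol synthesis genes in pathway order, on a log axis, with 1 point for each array, an orange bar at the Combo signal expected from multiplying the single-drug folds and a dotted line at the floor of 66.4. Every Combo point (black) lies below its bar, by the most for ACAT2, TM7SF2 and MVD.

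HMGCS1 and MVD are shown with the stretch of promoter that holds CCAAT, the element bound by NF-Y, a factor that acts with SREBP at many sterol genes. They are shown because, with folds expected to multiply, every measured gene of the list had a negative departure, although their signals took different patterns. The 100 bases lie upstream of the start of the gene in RefSeq on GRCh38.p14 and are written 5′ to 3′ on the gene's strand, and capitals mark CCAAT or its reverse complement ATTGG.
HMGCS1 (chr5:43313461-43313560, minus strand): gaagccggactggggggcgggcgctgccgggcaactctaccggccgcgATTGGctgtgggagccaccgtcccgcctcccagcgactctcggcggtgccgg
MVD (chr16:88663125-88663224, minus strand): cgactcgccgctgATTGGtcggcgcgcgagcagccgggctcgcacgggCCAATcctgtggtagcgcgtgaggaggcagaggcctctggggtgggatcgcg
In the 250 bases before the start, on either strand, CCAAT was found in 13 of the 15 cholesterol synthesis genes with a promoter in the table (86.7%) and in 37.0% of all 27305 genes there. The median departure was -0.87 for the 13 and -0.26 for the other 2. A match is a description of these letters and not a site in use.

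Genes that regulate, take up or export sterol did not follow the synthesis genes as a group. Their 14 genes above the floor had a median departure of -0.13, with 0 called above and 1 below, TMEM97, a sterol-responsive membrane protein (4923, 3847, 9403 and 3452, departure -1.09). INSIG1, an anchor of SREBP, had signals of 3490, 20005, 8239 and 24732 against 47224 expected, and a departure of -0.93. That expected signal also lies above 46452, the highest mean signal of any of the 11058 genes. STARD4, a sterol carrier, had -0.85. INSIG1 and STARD4 are known SREBP2 targets, and neither was called. The exporters lay on the other side. ABCA1, the cholesterol exporter, had signals of 155 in Untreated, 261 in Rom, 37.0 in Tam and 288 in Combo, and with Tam at the floor its departure was at least 1.37. ABCG1, a related exporter, had signals of 208, 1370, 48.3 and 948 and a departure of at least 1.11, although its other probe set gave -0.13. MYLIP, a sterol-responsive ubiquitin ligase, was not called at 0.75, and its 4 probe sets ranged from 0.75 to 1.31. ABCA1, ABCG1 and MYLIP are known LXR targets, and in all 3 the lowest signal was in Tam.

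Over 21 genes of fatty acid and glycerolipid synthesis the median departure was -0.16. Of these, 0 were called above and 2 below, beside 0.886% and 2.23% of all genes. A negative departure was found for 17 of the 21 genes and for 33 of their 43 probe sets, whose median was -0.28. ACSS2, which makes acetyl-CoA from acetate, had signals of 548, 1167, 1757 and 968 against 3738 expected, and so a departure of -1.95. FADS2, a fatty acid desaturase, had signals of 927, 415, 1606 and 355 and a departure of -1.02.

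Mitosis was the list with the most genes called below additivity. Of 67 genes, all above the floor, 9 were called below (13.4%) and 0 above, beside 2.23% and 0.886% of all genes. A negative departure was found for 57, beside 55.4% of all genes, and the median was -0.58, against -0.04. Over their 109 probe sets above the floor, 95 were negative. The median log2 fold over untreated cells was -1.48 after romidepsin, -0.09 after tamoxifen and -2.27 after both. Tamoxifen thus went with a median log2 fold of -0.70 in the presence of romidepsin and with one near 0 without it. In a bulk sample, fewer cells in mitosis and less of these RNAs per cell cannot be told apart.

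All 9 called genes had their lowest signal in Combo. CDC20, the activator of the anaphase-promoting complex, had signals of 12955 in Untreated, 5297 in Rom, 6489 in Tam and 1066 in Combo, where 2653 was expected, and a departure of -1.32. CDK1, the kinase that drives entry into mitosis, had signals of 5150, 2565, 9185 and 1996 and a departure of -1.20, with its 3 probe sets between -1.24 and -1.16. CDK1 was thus higher with tamoxifen alone but lower with tamoxifen on top of romidepsin. BIRC5, the survivin subunit of the chromosomal passenger complex, had signals of 10418, 3948, 6205 and 1033 and a departure of -1.19, and its 4 probe sets lay between -1.22 and -0.73.

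The other 6 include kinetochore, spindle and cytokinesis genes. SPC24, a subunit of the NDC80 complex, had signals of 735, 411, 476 and 119 and a departure of -1.17. DLGAP5, a spindle assembly factor, had signals of 2121, 1173, 2913 and 723 and a departure of -1.15. AURKB, the passenger complex kinase, had signals of 3569, 685, 2326 and 214 and a departure of -1.06. CDCA3 (-1.10), ANLN (-1.08), which organises the cleavage furrow, and KIF20A (-1.05), a cytokinesis kinesin, completed the 9.

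Several other genes of the program were not called. FOXM1, a transcription factor of mitotic genes, had signals of 2353, 421, 1568 and 236 against 281 expected, a departure of -0.25. The departure was -0.72 for the kinase PLK1 and -0.41 for cyclin B1, CCNB1, whose other probe set gave -0.77. On the other side of 0, none was called: CKS2, a CDK-binding subunit, was highest in Combo at 25585 against 16080 expected (0.67), CENPE, a kinetochore kinesin, had 0.59, and INCENP had 0.75 with an expected signal of 54.8, under the floor. On the linear scale the direction of this list turned, with a median of 0.05. For AURKB (1.69), BIRC5 (3.96), CDC20 (4.01) and KIF20A (2.94) the summed losses exceed the untreated signal, so that the linear expectation was set to the floor and the departure turned positive.

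**Figure D3:**
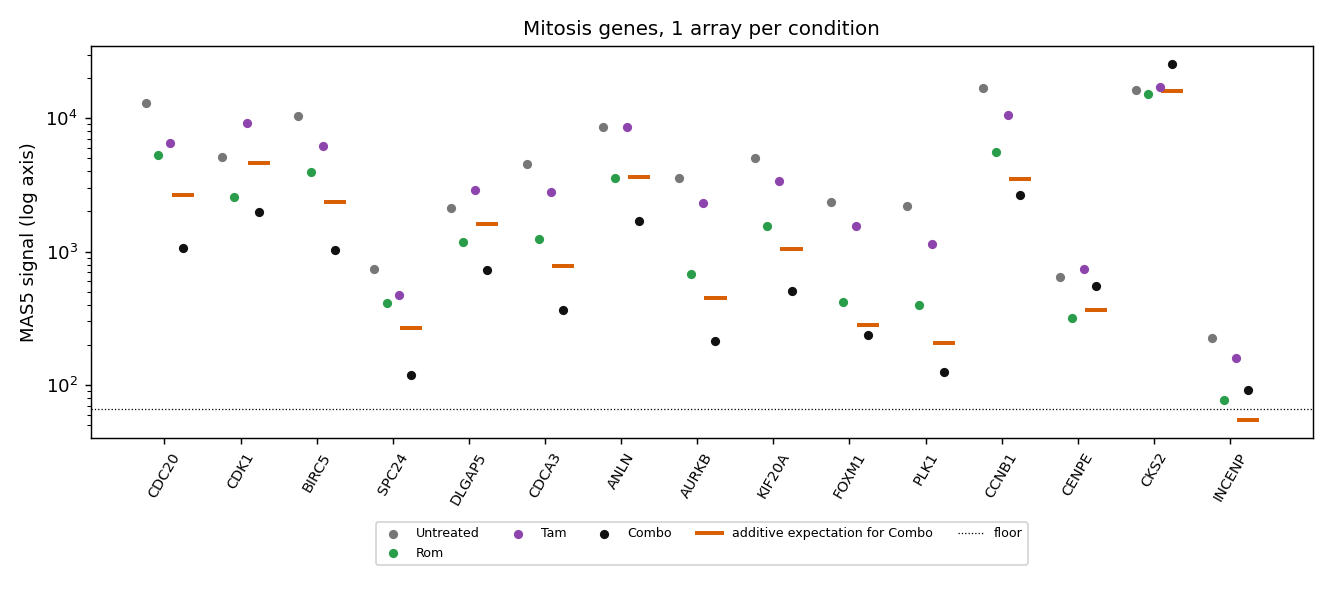
MAS5 signals of 15 mitosis genes on a log axis, with 1 point for each array, an orange bar at the additive expectation for Combo and a dotted line at the floor of 66.4. In the 9 genes called below additivity, at the left, Combo (black) is the lowest point and lies under its bar, while CENPE, CKS2 and INCENP, at the right, lie above theirs.

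CDC20, CDK1, ANLN and DLGAP5 hold the letters TTTGAA, the core of the cell cycle genes homology region through which the DREAM and MMB complexes are known to act, in the 250 bases before their start. Each stretch is upstream sequence from RefSeq on GRCh38.p14, written 5′ to 3′ on the gene's strand, and capitals mark TTTGAA or its reverse complement TTCAAA.
CDC20 (chr1:43358869-43358968, plus strand): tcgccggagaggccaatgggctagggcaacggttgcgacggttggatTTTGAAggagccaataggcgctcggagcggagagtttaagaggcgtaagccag
CDK1 (chr10:60778123-60778222, plus strand): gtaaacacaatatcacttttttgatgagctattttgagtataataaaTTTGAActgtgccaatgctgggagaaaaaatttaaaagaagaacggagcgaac
ANLN (chr7:36389762-36389861, plus strand): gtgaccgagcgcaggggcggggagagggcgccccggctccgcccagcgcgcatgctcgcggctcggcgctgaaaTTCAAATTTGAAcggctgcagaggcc
DLGAP5 (chr14:55191642-55191741, minus strand): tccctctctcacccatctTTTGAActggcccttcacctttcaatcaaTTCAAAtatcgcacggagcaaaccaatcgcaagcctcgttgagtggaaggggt
TTTGAA, on either strand, was found in 32 of 57 mitosis genes with a promoter in the table (56.1%) and in 16.1% of all 27305 genes. The median departures of genes with and without it were close, at -0.63 over 32 genes and -0.54 over 25. Of 8 called mitosis genes with a promoter in the table, 4 held it.

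Replication and repair genes had medians near that of all genes. Over the 56 replication and G1/S genes the median departure was -0.09, with 0 above and 1 below, although the median log2 fold was -0.96 after romidepsin and -1.48 after both. The 1 called gene was RRM2, the regulated subunit of ribonucleotide reductase, with signals of 13763, 9607, 8708 and 2601 and departures of -1.29 and -1.22 on its 2 probe sets. CCNE2, cyclin E2, had 0.78, and its other probe set -0.56. Among 24 recombination and Fanconi genes, with a median of -0.03, RAD51AP1 was called below (1205, 476, 1705 and 287, departure -1.23). Kinesins, 29 genes that overlap the mitosis list, had a median of -0.41. Of these, 0 were called above and 3 below, KIF15 (-1.23), KIF12 (-1.14) and KIF20A, beside 0.886% and 2.23% of all genes.

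Cell cycle inhibitors were mixed. CDKN1A, the p21 inhibitor of CDKs, was close to additive, at 1047, 7755, 1138 and 7644 with a departure of -0.14, so that the romidepsin array and the combination were alike. CDKN1C, the p57 inhibitor, had signals of 718, 3642, 1598 and 3662 against 8105 expected, and was the 1 gene called below (-1.15, with its 4 probe sets from -1.15 to -0.44) of 12 CDK inhibitors, D cyclins and RB family genes, whose median was -0.20. MYC, at 5208, 1668, 4042 and 648, stopped just short of the threshold at -0.998.

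Epithelial junction and keratin genes had the median next to that of cholesterol synthesis, -0.61 over 17 genes, of which 16 had a negative departure. Of the 17, 2 were called below and 0 above, beside 2.23% and 0.886% of all genes. CDH1, the adherens junction cadherin, had signals of 223, 1027, 452 and 874 against 2084 expected, and a departure of -1.25. DSC2, a desmosomal cadherin, had signals of 556, 314, 920 and 256 and a departure of -1.02, although its other probe set gave 0.08. KRT80 was lowest in Combo (8979, 1471, 6491 and 547) and not called at -0.96. Integrin and focal adhesion genes had a median of -0.25 over 31, with 0 above and 3 below, beside 0.886% and 2.23% of all genes. The 3 were LIMS2 (-1.49), TNS4 (-1.16) and BCAR1 (-1.01), all at their lowest in Combo.

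Single growth factor genes were called each way. Of 9 genes of the EGFR family and its ligands above the floor, 1 was called above and 2 below, beside 0.886% and 2.23% of all genes, with a median of -0.20. EREG, the ligand epiregulin, had signals of 1160, 394, 1273 and 126, with 432 expected and a departure of -1.78, and ERBB3, a receptor, had 307, 474, 402 and 230 (-1.44, with its 3 probe sets from -1.44 to 0.49). HBEGF, another ligand, had signals of 646, 984, 287 and 1007 against 438 expected and a departure of 1.20, with 0.22 on its other probe set. HBEGF was thus low with tamoxifen alone and not with tamoxifen on top of romidepsin. For the ligand TGFA, with Untreated at the floor, -1.21 was the bound of a shortfall that may be larger.

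The 27 genes of MAP kinase output and feedback, a list that also holds EREG and HBEGF, had a median of -0.28. Of these, 3 were called above and 2 below, beside 0.886% and 2.23% of all genes. DUSP2, a nuclear MAP kinase phosphatase, had signals of 163, 260, 108 and 476 and a departure of 1.45, highest in Combo. DUSP7, a cytoplasmic one, had 637, 683, 416 and 948 and a departure of 1.09, with 0.79 on its other probe set. PHLDA1, a growth-factor-induced gene, had 14673, 6468, 10459 and 2069 and a departure of -1.16, with its 6 probe sets all negative, from -1.32 to -0.64.

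Several chemokine genes were near the floor without romidepsin, high with it, and lower again where tamoxifen was added, but no shortfall is settled because the tamoxifen array lay at the floor. Of 21 chemokine genes with a probe set, 2 lay above the floor on all arrays and 11 lay at it on some. Of these 11, 7 were not settled, beside 3.75% of all genes at the floor on 1 to 3 arrays. CCL20, a ligand of CCR6, had signals of 42.3 in Untreated, 1972 in Rom, 14.8 in Tam and 427 in Combo, and CXCL8, interleukin 8, had 30.8, 1351, 61.3 and 348. CXCL1 had signals of 98.0, 1592, 55.6 and 246, CXCL2 had 83.6, 510, 40.1 and 150, and CXCL3 had 25.6, 189, 9.0 and 66.8. In all 5 the Combo signal was several-fold below Rom, and the floored departures were -2.21, -1.96, -2.13, -1.43 and -1.5 in the order named. A true tamoxifen signal below the floor would bring these values toward 0 and a true untreated signal below it would do the opposite, so they carry no call. CXCL11 went the other way, at 13.4, 72.2, 7.28 and 272, with a floored departure of 1.91. The close sequence of CXCL1, CXCL2 and CXCL3 leaves the share of each in these signals uncertain.

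CXCL1, CXCL2, CXCL3 and CXCL8 hold the same NF-kappaB motif letters, GGAATTTCC, within 100 bases of their start. They are shown because in each of them Rom was the highest signal and Combo the next. The order of Untreated and Tam differed, with Tam the higher only in CXCL8. CXCL11, with a departure of the opposite sign, is among the chemokines that also hold these letters before their start. The stretches are upstream sequence from RefSeq on GRCh38.p14, written 5′ to 3′ on the gene's strand, and capitals mark the motif.
CXCL1 (chr4:73869269-73869368, plus strand): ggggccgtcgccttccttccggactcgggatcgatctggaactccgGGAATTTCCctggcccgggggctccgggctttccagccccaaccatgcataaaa
CXCL2 (chr4:74099219-74099318, minus strand): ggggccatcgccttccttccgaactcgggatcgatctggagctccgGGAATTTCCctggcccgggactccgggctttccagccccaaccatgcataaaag
CXCL3 (chr4:74038714-74038813, minus strand): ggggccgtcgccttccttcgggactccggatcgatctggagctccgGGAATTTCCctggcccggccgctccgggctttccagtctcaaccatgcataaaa
CXCL8 (chr4:73740432-73740531, plus strand): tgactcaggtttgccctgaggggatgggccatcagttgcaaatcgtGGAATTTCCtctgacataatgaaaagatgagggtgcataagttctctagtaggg
GGAATTTCC, on either strand in the 250 bases before the start, was found in 8 of 17 chemokine genes with a promoter in the table (47.1%) and in 0.502% of all 27305 genes. CCL20 did not hold these letters in that window. Over 20 genes of NF-kappaB subunits, inhibitors and feedback targets, 0 were called either way and the median departure was -0.13, with NFKBIZ at -0.91 and ICAM1 at 0.66.

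Lists of stress response and death genes differed. Heat shock chaperones had a median of -0.05, p53 targets -0.06 and ER chaperone genes 0.08. The integrated stress response and amino acid supply list of 30 genes had a median of -0.33, with 0 above and 1 below, DDIT4, an inhibitor of mTORC1 signalling, at 1279, 1622, 2567 and 1294 (-1.33). Its central factors were not called: DDIT3 had 0.44, ASNS 0.02, TRIB3 -0.67, CHAC1 -0.60 and SLC7A11 -0.43. Of 11 pro-apoptotic BCL2 family genes, 0 were called, and they ran from -0.92 for PMAIP1 to 0.77 for BCL2L11. Their median was -0.36, and -0.21 over their 28 probe sets above the floor. Antigen presentation (21 genes, median -0.33, ERAP2 below at -1.19) and interferon-stimulated genes (20 genes, median -0.28, OASL below at -1.09) each had 1 gene below and 0 above. Over all their probe sets above the floor the medians were smaller in size, at -0.09 over 42 and -0.13 over 29.

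Among genes whose probe sets above the floor all had 1 sign, the largest departures below additivity were single genes of varied function. NDRG2, a stress-responsive member of the NDRG family, had signals of 90.4 in Untreated, 781 in Rom, 304 in Tam and 347 in Combo, against 2630 expected, and a departure of -2.92. TBX3, a T-box repressor, had signals of 520, 1321, 1113 and 656 against 2828 expected, and a departure of -2.11, with its 3 probe sets from -2.11 to -0.07. Both genes were at least 2-fold higher with either drug alone, and adding tamoxifen to romidepsin went with a signal at least 2-fold lower. IL31RA, a cytokine receptor subunit, had 120, 207, 288 and 105 and a departure of -2.25.

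ADGRG1, an adhesion receptor, had signals of 542, 442, 828 and 155 and a departure of -2.13, with Combo lowest. TFPI, the inhibitor of the tissue factor pathway of coagulation, had signals of 2207, 307, 4083 and 146 against 567 expected, with departures of -1.96 and -1.21 on its 2 probe sets. Together with ACSS2 and ACAT2, the 12 largest were completed by the complement protein C3 (-1.93), the zinc finger gene ZNF385A (-1.91), RTBDN (-1.87), the flippase ATP9A (-1.83) and RBM47 (-1.83), an RNA-binding protein. Among genes with some arrays at the floor, the largest bounds were -3.30 for ASMTL-AS1, -3.21 for ANHX, -2.69 for DHDH and -2.46 for AVPR1B.

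Genes above additivity were mostly dim, and no list had more than 3 of them outside the ZNF genes. The 12 largest, again among genes of 1 sign over their probe sets, ran from 2.22 to 1.49. The first, GUSBP4, is a pseudogene with close copies, so its signal of 134, 68.8, 108 and 259 may not come from 1 locus. It was followed by the noncoding RNAs VESTAR (1.74), TMEM147-AS1 (1.73, with 0.62 on its other probe set) and CIBAR1-DT (1.63), and by ARID3B, an AT-rich DNA-binding factor, at 371, 247, 129 and 275 (1.67). In ARID3B tamoxifen alone went with the lowest signal and Combo stood near Rom. ZNF83, a zinc finger gene, had 103, 87.6, 121 and 321 and a departure of 1.65, and ZNF594 had 83.9, 115, 91.6 and 354 (1.5), and both were highest in Combo by a wide margin. The others were IGKV1OR2-118 (1.59), SEMA5B (1.58), a semaphorin, PRKAR1B (1.51), a regulatory subunit of protein kinase A, CASKIN2 (1.5, with 0.27 on its other probe set) and CLBA1 (1.49). Expected Combo signals under the floor include those of GUSBP4 (55.5), CIBAR1-DT (51.9) and IGKV1OR2-118 (53.8). Such genes lie above the floor on all 4 arrays only if their departure is positive, so its sign is no finding. Among bounds, CDH24 was at least 2.65 above (its other probe set had 0.46), CASKIN1 at least 2.18, GSX2 at least 2.01 and ALOX12-AS1 at least 1.99.

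Ribosome biogenesis genes had the highest list median, 0.28 over 45 genes, of which 40 had a positive departure and 0 were called. The median log2 fold was -0.50 after romidepsin, -0.49 after tamoxifen and -0.72 after both. LYAR, a nucleolar growth factor, had signals of 1260, 985, 846 and 1293 against 661 expected, so that Combo stood at the untreated level, with departures of 0.97 and 1.14 on its 2 probe sets. URB2, a nucleolar protein, had 533, 206, 305 and 231 (0.97), and UTP20, of the small subunit processome, had 1177, 395, 1164 and 612 (0.65). Measured against the drug that moved each gene more, in place of the product of both, the median was -0.02. Cytosolic ribosomal proteins had a median of 0.13 over 58 genes, with 52 positive and 0 called, but 0.01 after quantile normalization.

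The 288 zinc finger genes named ZNF had a median of 0.10 with 180 positive, and 7 were called above (2.43%) and 3 below (1.04%), beside 0.886% and 2.23% of all genes. More of these genes were thus called above than below, where over all genes more were called below. Calls above also went with dim signals, at 68 of 2212 genes in the dimmest of 5 bins. The part of signal level in the count for ZNF genes was not tested. A further 5 were above and 2 below by a bound, which was 1.95 for ZNF117 and -1.69 for ZNF554. ZNF385A (-1.91) and ZNF789 (-1.82, with 0.41 on another of its probe sets) were the lowest.

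Histone genes had 3 called above and 1 below of 20, beside 0.886% and 2.23% of all genes, with a median of 0.08. H2BC9 had signals of 315, 919, 242 and 1747 against 706 expected (1.31), H2AC8 had 120, 244, 74.7 and 310 (1.04), and H4C11 had 308, 99.8, 156 and 137 (1.44). The expected Combo signal of H4C11 was 50.5, under the floor, so it could enter the 20 genes only with a positive departure. H2BC21 was called below, at 145, 1085, 313 and 1151 (-1.03). The copies of these genes are near-identical, so the assignment of a signal to 1 of them is uncertain. CLK1, a kinase that phosphorylates splicing factors, was the 1 of 45 splicing regulators called, at 385, 238, 708 and 904 (1.04), and its paralog CLK4 had 0.96 on one probe set and -0.03 on the other. CEP290, a transition zone protein, was the 1 of 56 cilium genes called, at 200, 293, 259 and 898 (1.25), and DYNC2H1, the motor of retrograde ciliary transport, had 0.69 with Combo highest.

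**Figure D4:**
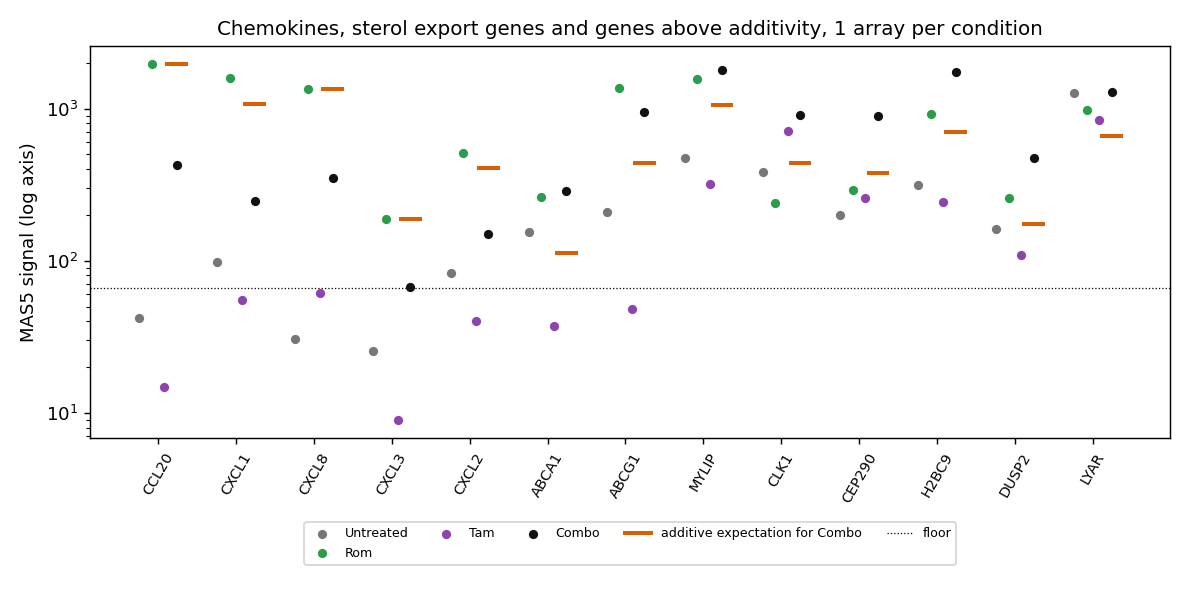
MAS5 signals of 5 chemokine genes, 3 sterol export and uptake genes and 5 genes with a positive departure, on a log axis, with 1 point for each array, an orange bar at the additive expectation for Combo and a dotted line at the floor of 66.4, under which a signal entered the expectation at the floor value. Combo lies below the bar in all 5 chemokine genes, whose tamoxifen signals are under the floor, and above the bar in the other 8.

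Many functions were close to additive. Of the 53 lists, 43 had a median within 0.25 of 0 and 10 beyond, with 38 medians negative and 15 positive. Signs of medians near 0 turned under some alternatives. Beside 3.12% of all genes, no gene was called either way among 69 oxidative phosphorylation subunits (median -0.01), 33 proteasome subunits (0.08), 40 core spliceosome genes (0.08), 51 nuclear pore genes (-0.02), 25 ER chaperone genes (0.08) or 33 histone deacetylase, acetyltransferase and bromodomain genes (-0.04). In lists of this size a count of 0 is near that background. HDAC1, a target of romidepsin, had -0.04 and HDAC2 -0.36. Several genes with large romidepsin responses were also not called. DHRS2, a reductase, had signals of 346, 23549, 504 and 25122 (-0.45), and TXNIP, a thioredoxin inhibitor, had 252, 2065, 326 and 2804 (0.07). FOSL1, an AP-1 subunit, had 5010, 211, 3081 and 158 (0.29). An exception was ABAT, the GABA transaminase, at 115, 5066, 280 and 5660 against 12280 expected (-1.12), although on the linear scale it had 0.11. ESR1, the estrogen receptor gene, lay at the floor in Untreated and Tam, so its value of 0.69 is no measured departure.

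**Figure D5:**
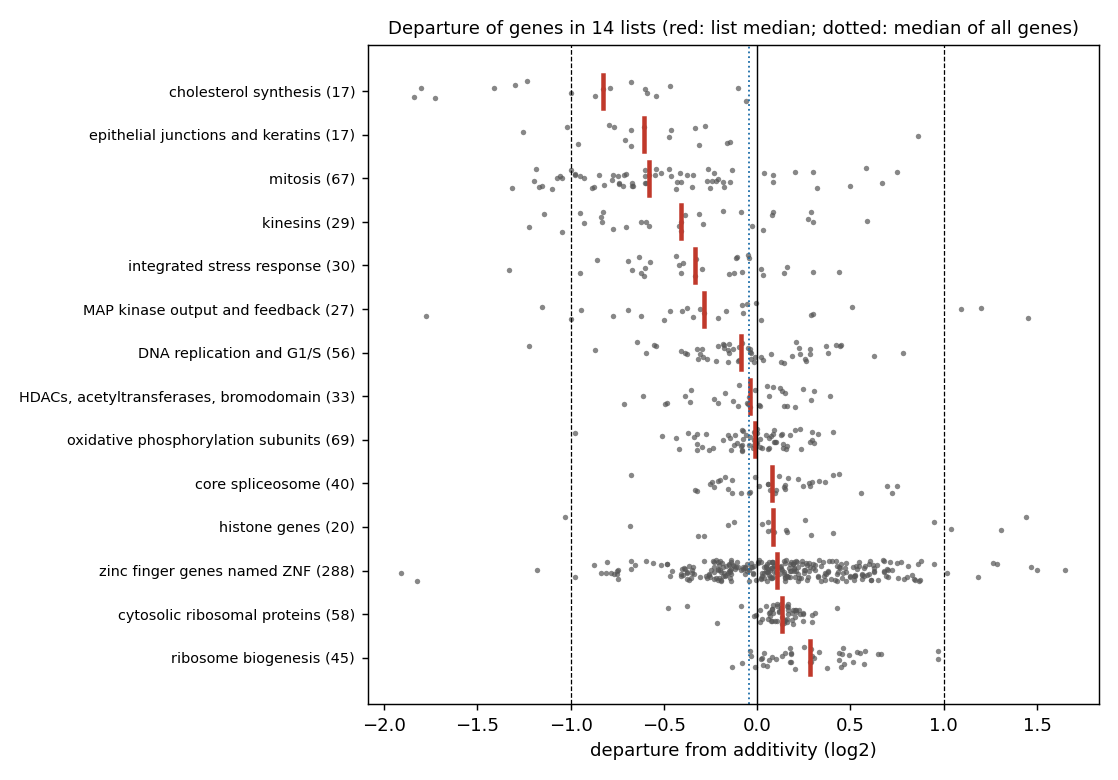
Departures in log2 of the genes above the floor on all 4 arrays in 14 gene lists, with 1 point per gene, the number of genes in brackets, a red bar at the list median, a dotted line at the median of all genes (-0.04) and dashed lines at the 2-fold departures. The medians run from -0.83 for cholesterol synthesis to 0.28 for ribosome biogenesis, and in the 5 uppermost lists genes lie past the left dashed line only.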

How the data were processed

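Total RNA of 4 Panc1 samples was hybridised to Affymetrix 3′ expression arrays, 1 per group, per the labels' protocols. The deposited table holds 1 linear intensity per probe set and array, which the authors computed with MAS5 per the submitters' processing notes. No version is stated in those notes. The method scales every array separately, so the bulk of the signal is taken to be equal. The value table was used, and background correction, slide and scan date were not varied. Columns of other samples numbered 0.

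The 4 samples were grouped by their titles. Of 54675 probe sets, 62 are controls, 41091 carry 1 gene symbol in the platform annotation, 1801 several and 11721 none; 41043 matched the RefSeq gene table by Entrez ID, which was used for names. Promoter sequences came from the RefSeq table on GRCh38.p14. Signals under the median of the deposited signals (66.4) were set to it, log2 was taken, and the departure was computed per probe set. A gene was called at 2-fold, and at the floor only where its value is a bound in the direction called. With 1 array per group no test was made. The number of arrays limits the precision, and the spread between probe sets and over spike-ins holds no variation between cultures.

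Genes were named by rule where their other probe sets above the floor had the same sign: the 12 largest departures each way, the 4 largest of each form and of each kind of bound, up to 5 per list without the rule on sign, and a set that was always reported. The members, the 54 gene lists and these rules were chosen with earlier results of these data known. Lists with under 5 measured members got values only. Alternatives were other scalings, floors, probe-set choices and meanings of additivity. Python 3.11.15, numpy 2.4.6, pandas 2.3.3 and matplotlib 3.10.9 were used, and the steps were tested on simulated data.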

Additional observations from a re-analysis of the deposited data

Results flagged for a closer look

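Of the 11058 genes above the floor on all 4 arrays, 2 showed tamoxifen effects of at least 2-fold in opposite directions without and with romidepsin. For NDRG2 the tamoxifen signal was 3.37-fold higher than the untreated signal, and the combination was 2.25-fold lower than romidepsin alone, a departure of -2.92. For TBX3 the tamoxifen signal was 2.14-fold higher than the untreated signal, and the combination was 2.01-fold lower than romidepsin alone, a departure of -2.11. With 1 array per group the difference between these effects was not tested. NDRG2 has 1 probe set above the floor on all 4 arrays, and the 3 of TBX3 ranged from -2.11 to -0.07.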

How the results depend on the processing

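The count of genes above and below additivity was 98 and 247, and 3 scalings (arrays centred on their medians, quantile normalization and scaling to the spike-ins), the median over probe sets and leaving out probe sets that may cross-hybridise kept both within 1.5 times. With the floor at the 25th percentile it was 548 and 795, with the floor at the 75th 12 and 63, and with log2(signal + 50) in place of a floor 45 and 133. Counting genes above the floor on at least 1 array gave 273 and 376, by construction from more genes. Adding effects on the linear scale gave 564 above and 273 below, so that calls above then outnumbered those below, and setting Combo against the drug farther from untreated gave 238 and 308.

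Only the 78 named genes above the floor on all 4 arrays with a departure of at least 1 in size were followed. Where folds still multiply, 559 of their 613 values moved by less than 0.25, the median difference between probe sets of a gene. Another 54 moved further and 0 changed sign. Genes chosen for a large departure on these same arrays leave little room for a change of sign. Of 471 list medians 466 moved by less than that, and 26, from 17 of the 53 lists, changed sign. Those 17 lists had medians of at most 0.14 in size. On the linear scale 15 list medians changed sign, among them mitosis (0.051), kinesins (0.11), DNA replication and G1/S (0.34), plasminogen activation (0.47), anti-apoptotic genes (0.30), NF-kappaB (0.14) and sterol regulation (0.052). So did the named genes ABAT (0.11), ALDOC (0.28), AURKB (1.69), BIRC5 (3.96), CDC20 (4.01), HMGCS1 (0.24), IDI1 (0.16), KIF20A (2.94) and SLC39A8 (0.033). Against the farther drug 16 list medians changed sign, among them ribosome biogenesis (-0.021), core spliceosome (-0.22), the MYC network (-0.14), metallothioneins (-0.11), mitochondrial (-0.052) and cytosolic (-0.027) ribosomal proteins and sestrins and FOXO genes (0.22). So did the named genes ABAT (0.16), ALDOC (0.74), CDKN1C (0.0078), HMGCS1 (1.04), IDI1 (0.92), KBTBD3 (0.55), RTN4RL1 (-0.0032) and SLC39A8 (0.31). Beyond the different expectation that each alternative sets, the cause was not tested.

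No paired analysis was possible because each group has 1 array and the labels give no replicate numbers, and for the same reason no replicate could be left out. With 1 array per group variation between cultures is unmeasured. Dim signals limit precision further: the SD of the departure was 0.57 in the dimmest of 5 bins of genes and 0.31 in the brightest, and for 3356 genes at the floor on 1 to 3 arrays only bounds could be given.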

Other observations

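Few genes above additivity were bright. Of the 98, 3 lay in bin 4 of 5 bins of rising mean signal and 0 in bin 5. The 3 genes are named here after their values were seen. BNIP2, a BCL2-interacting protein, had signals of 1504 in Untreated, 1343 in Rom, 1772 in Tam and 3199 in Combo (departure 1.02), and Combo was the highest array. MAEA, a subunit of the CTLH ubiquitin ligase, had 4818, 2401, 2215 and 2360 (1.10), so that the signal with both drugs was about that of either alone. SIVA1, an apoptosis-inducing factor, had 3653, 2051, 1388 and 2357 (1.60). BNIP2 and SIVA1 have another probe set above the floor with a departure of the opposite sign.

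Several genes with a large departure lie outside the functions described above. NES, the intermediate filament nestin, had 463, 917, 253 and 171 (-1.55), lowest in Combo although higher with romidepsin alone. RAB27B, a GTPase of secretory vesicles, had 1074, 361, 3862 and 598 (-1.12), and RAB3A, another, had 130, 268, 74.7 and 336 (1.12), so that of 47 RAB genes 1 was called each way. NQO1, the quinone reductase of the NRF2 response, had 6938, 4121, 7251 and 1830, with its 3 probe sets between -1.23 and -0.98, and was the 1 of 31 NRF2 targets and antioxidant genes called. ALDOC, an aldolase of glycolysis, had 139, 1064, 539 and 1783 against 4125 expected (-1.21), highest in Combo. SLC39A8, a zinc and manganese importer, had 121, 1164, 370 and 1446 (-1.30), and KBTBD3 had 195, 843, 771 and 1232 (-1.44), both also highest in Combo. MMP14, a membrane-bound matrix metalloproteinase, had 74.1, 106, 185 and 126 (-1.06), and COL5A2, a fibrillar collagen chain, had 4437, 2831, 4669 and 1234, with its 2 probe sets at -1.27 and -0.71.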
